A study of Mus musculus with 12 samples.

Results

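The 37 genes of the mouse mitochondrial chromosome were examined in sorted spermatogonia of Tet1KO and WT mice. They are all the genes that the deposited count table places on chrM, 37 of 53715 genes, and they fall into 13 protein genes, 2 rRNA genes and 22 tRNA genes. Spermatogonia are mitotic male germ cells, and include the stem cells that maintain sperm production. TET1 is a DNA dioxygenase that acts on methylated cytosine. The 12 libraries form 4 groups of 3, which are Tet1KO at 11 months of age, WT at 11 months, Tet1KO at 3 months and WT at 3 months, and all 12 share the strain C57BL6/129. According to the labels, 1000 flow-sorted cells went into each Smart-seq2 library. The labels give neither the Tet1 allele nor the gate of the sort. Nor do they state whether replicates are different animals, and the p-values below therefore cover only the spread among these libraries, which may be technical.

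The mitochondrial chromosome is a small circle present in many copies per cell. It is transcribed from both strands into long precursors, and most of its tRNAs sit between the protein and rRNA genes, where their excision frees the flanking RNAs. The 13 proteins are core subunits of the respiratory chain and of ATP synthase, the 2 rRNAs are those of the mitochondrial ribosome, and every factor that transcribes, cuts or stabilises these RNAs is encoded in the nucleus. Smart-seq2 primes on poly(A) tails, so levels here are those of captured, tailed RNA and not of all mitochondrial RNA.

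Total counts ran from 8325159 to 18223645 per library, and Tet1KO replicate 2 and WT replicate 1 of 3 months stood apart, with 30010 and 29420 genes detected, while no other library exceeded 26995. The library codes of the 2 ages run in separate blocks, so age and the code block cannot be told apart. All 13 spermatogonial markers had a count in all 12 libraries, and their summed level was 3040 to 4330 CPM. CPM is a gene's counts scaled to a common library size with TMM factors, except where library totals are named. Ddx4, a germ cell helicase gene, stood at 294 ± 9.35 CPM in Tet1KO and 300 ± 44.7 CPM in WT at 11 months, and at 345 ± 40.5 CPM in Tet1KO and 325 ± 13.5 CPM in WT at 3 months (SD, n = 3 each). Dazl, which encodes a germ cell translation regulator, averaged between 1930 and 2180 CPM in the 4 groups, and Kit, the receptor gene of differentiating spermatogonia, between 84.9 and 97.4 CPM. Tet1 itself had 1 to 17 counts in Tet1KO and 1 to 16 in WT libraries at 11 months, and 6 to 18 in Tet1KO and 0 to 16 in WT libraries at 3 months. These counts over the whole gene do not check the genotype, since the deleted part is not given in the labels.

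Some of the 13 protein genes have near-perfect copies in the nuclear genome, and this bears on what their counts mean. A block on the minus strand of chromosome 1 (mm10, chr1:24611535-24616197) holds 7 annotated genes that copy stretches of mt-Nd4, mt-Nd4l, mt-Nd3, mt-Co3, mt-Atp6, mt-Co2 and mt-Co1, with 99.7 to 100 percent identity over the aligned bases. The opening 60 bases of mt-Co3 and of its copy Gm28437, and of mt-Nd3 and its copy Gm28438, show how little separates them. For mt-Cytb, 60 bases are set beside Gm11410, a more diverged copy on chromosome 4. Sequences are 5′ to 3′ from the GENCODE vM21 transcripts (GRCm38, that is mm10), and capitals mark the bases that differ within a pair.
mt-Co3, chrM:8607-8666, plus strand: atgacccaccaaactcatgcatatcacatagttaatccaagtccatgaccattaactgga
Gm28437, chr1:24613912-24613971, minus strand: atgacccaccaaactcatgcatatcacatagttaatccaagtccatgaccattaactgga
mt-Nd3, chrM:9459-9518, plus strand: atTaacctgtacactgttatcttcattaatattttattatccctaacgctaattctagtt
Gm28438, chr1:24613060-24613119, minus strand: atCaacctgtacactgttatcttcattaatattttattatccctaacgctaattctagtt
mt-Cytb, chrM:14146-14205, plus strand: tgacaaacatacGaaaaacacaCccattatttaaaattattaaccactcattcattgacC
Gm11410, chr4:80003990-80004049, plus strand: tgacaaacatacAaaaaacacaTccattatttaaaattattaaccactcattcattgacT
The mt-Co3 pair differs at 0 of these bases, the mt-Nd3 pair at 1 and the mt-Cytb pair at 3.

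The share of a gene's 50-base windows that occur unchanged in an annotated nuclear transcript measures this overlap. It was 100 percent for mt-Co2, 99.9 for mt-Co3, 99.5 for mt-Atp6, 98.8 for mt-Nd4l, 98 for mt-Nd3, 62.2 for mt-Nd4 and 51.1 for mt-Co1. It was 8.19 percent for mt-Nd2, 7.61 for mt-Nd5, 1.04 for mt-Rnr2 and 0 for mt-Nd1, mt-Cytb, mt-Nd6, mt-Atp8, mt-Rnr1 and the 22 tRNA genes. Only annotated transcripts were searched, and mt-Atp8, mt-Td, mt-Tk, mt-Tg and mt-Tr lie between genes copied in the chromosome 1 block, whose unannotated bases were not searched. Per the file headers, the authors counted fragments of mapping quality 30 or more, a limit that fragments matching both places equally well often do not reach. The copies were themselves counted at high levels, given here as CPM of library totals without TMM factors. Gm28437 stood at 913 to 1532 CPM and Gm10925, the mt-Atp6 copy, at 894 to 1798 CPM. The copy Gm28438 (46.9 to 96.2 CPM of library totals) was above mt-Nd3 (12.8 to 30.1 CPM with TMM factors). From which of the 2 places these fragments came cannot be told from the counts, so the levels of these 7 protein genes are uncertain. The level of mt-Atp8 may be uncertain in the same way, because the bases between the copies of mt-Co2 and mt-Atp6 were not searched. The copies of mt-Cytb and mt-Nd6 on chromosome 4, Gm11410 and Gm11408, had at most 3 counts and 1 count in any library. A stretch of Cep295, a nuclear gene on chromosome 9, aligned to mt-Tl1 with 93.5 percent identity over 62 bases and to mt-Tn with 91.5 percent over 71, with no 50-base window in common.

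**Figure D1:**
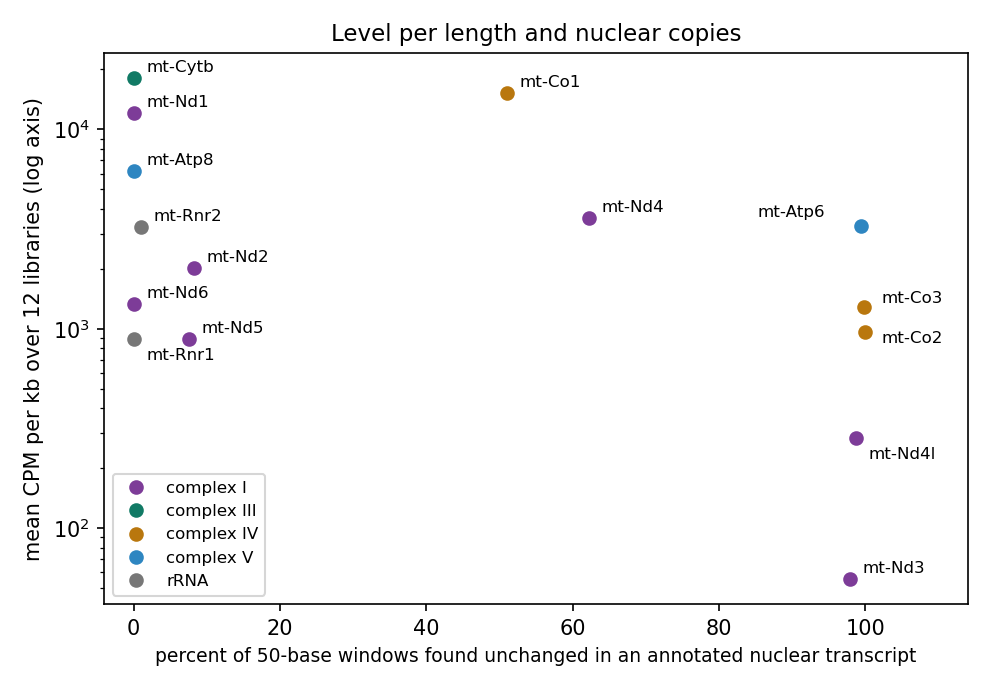
Each point is a mitochondrial protein or rRNA gene. The x axis is the percent of its 50-base windows found unchanged in an annotated nuclear transcript, the y axis its mean CPM per kb over 12 libraries on a log axis. The 3 highest genes are mt-Cytb at 18100, mt-Co1 at 15200 and mt-Nd1 at 12100 CPM per kb, and the lowest are mt-Nd4l at 284 and mt-Nd3 at 55.6, with 98.8 and 98 percent of windows shared.

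Per kb of gene, levels of the protein and rRNA genes spanned from 55.6 to 18100 CPM per kb as means over 12 libraries. The highest was mt-Cytb, the only mitochondrially encoded subunit of complex III, at 18100 CPM per kb, followed by mt-Co1, the catalytic subunit of complex IV, at 15200. Of complex I, mt-Nd1 stood at 12100, mt-Nd4 at 3600, mt-Nd2 at 2010, mt-Nd6 at 1330, mt-Nd5 at 885, mt-Nd4l at 284 and mt-Nd3 at 55.6 CPM per kb, all core subunits of its membrane arm. The other complex IV subunits, mt-Co3 and mt-Co2, stood at 1280 and 959 CPM per kb, and the ATP synthase subunits mt-Atp8 and mt-Atp6 at 6200 and 3290. The large rRNA gene mt-Rnr2 stood at 3250 and the small rRNA gene mt-Rnr1 at 887 CPM per kb. The place of the 7 copied genes in this order is uncertain, including whether mt-Co1 lies below mt-Cytb, and that of mt-Atp8 may be. In the files' mm10 coordinates mt-Rnr1 lies at chrM:70-1024, mt-Rnr2 at chrM:1094-2675, mt-Nd1 at chrM:2751-3707, mt-Co1 at chrM:5328-6872, mt-Nd4 at chrM:10167-11544 and mt-Cytb at chrM:14145-15288, all on the plus strand, and mt-Nd6 at chrM:13552-14070 on the minus strand. mt-Atp8 with mt-Atp6 and mt-Nd4l with mt-Nd4 overlap on the same strand, and a fragment over both was counted for each.

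Together the 37 genes took 7.04, 6.19 and 7.85 percent of all counts in the Tet1KO libraries of 11 months, and 7.80, 5.94 and 7.10 percent in the WT libraries of 11 months. At 3 months they took 8.58, 7.55 and 7.47 percent in Tet1KO and 9.20, 8.33 and 8.40 percent in WT libraries. Within each age the genotypes overlapped, and 4 of the 6 libraries of 11 months were below every library of 3 months. These are shares of captured RNA, in which fewer mitochondria or mitochondrial chromosomes per cell and less RNA from each cannot be told apart. Protein genes held 89.5 to 93.4 percent of the mitochondrial counts, the rRNA genes 5.67 to 9.63 percent and the tRNA genes 0.702 to 0.906 percent.

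**Figure D2:**
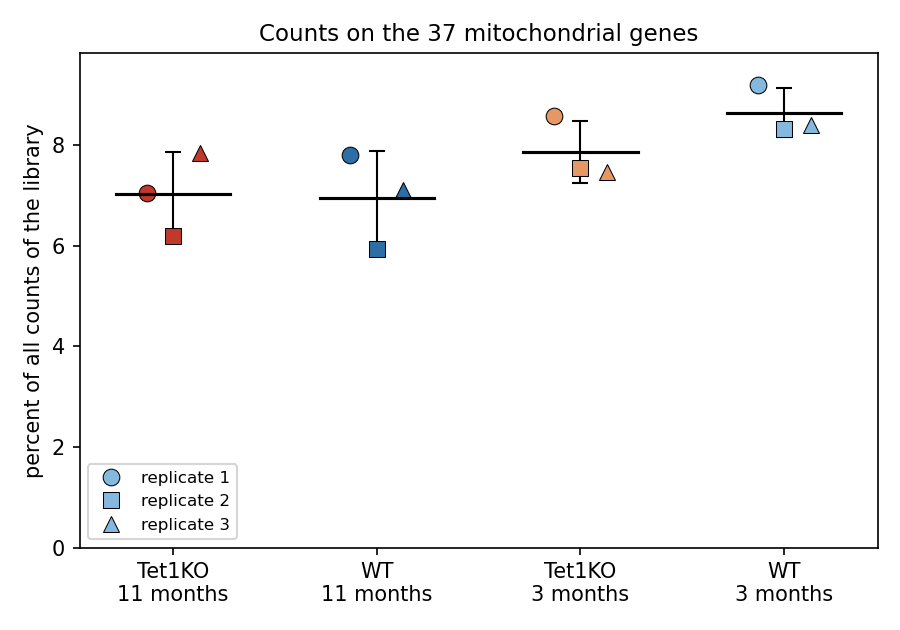
Percent of all counts of each library that fell on the 37 mitochondrial genes, by group. Points are libraries with a symbol for each replicate number, lines are group means and bars are SD (n = 3). The libraries of 11 months sit between 5.94 and 7.85 percent and those of 3 months between 7.47 and 9.20 percent.

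The mitochondrial share was lower at 11 than at 3 months by 0.245 on the log2 scale averaged over the genotypes, a fold of 0.844, with means of 6.99 ± 0.793 percent at 11 months and 8.26 ± 0.655 percent at 3 months (SD, n = 6 each). The exact two-sided permutation p, with ages exchanged within each genotype, was 0.015, and 0.105 after Benjamini-Hochberg adjustment over the 7 comparisons of this share, so it did not pass the 0.05 threshold. Without Tet1KO replicate 3 of 11 months the difference was -0.286 and passed (exact permutation p = 0.005, the smallest the design allows, adjusted p = 0.035). It did not pass in protein and rRNA genes with under 10 percent of windows shared, mt-Atp8 among them (-0.234, exact permutation p = 0.055). Nor did it per count of genes outside chrM (-0.27, exact permutation p = 0.065). Nor did it pass without the 2 libraries that stood apart (-0.236, exact permutation p = 0.05, adjusted p = 0.35). Without Tet1KO replicate 1 and WT replicate 2 of 3 months it was -0.226 (exact permutation p = 0.08). In WT libraries alone it was -0.323 (exact permutation p = 0.1, the smallest that 3 against 3 libraries can give) and in Tet1KO libraries alone -0.166 (exact permutation p = 0.3), which ran from -0.249 without replicate 3 to -0.0779 without replicate 2 of 11 months. Spermatocyte markers also ran lower at the later age, with all 9 of 9 counted in every library and a summed level of 1270 to 2540 CPM at 11 months and 1640 to 3760 CPM at 3 months. Their median log2 fold change was -0.64 in Tet1KO and -1.07 in WT. Peritubular myoid markers summed to 23.2 to 244 CPM at 11 months and 79.6 to 375 CPM at 3 months. Averaged over genotypes, 7 of 7 were lower, 5 of them at an unadjusted edgeR p under 0.05. By genotype, their median log2 fold change was -2.745 in Tet1KO, with 6 of 7 lower at an unadjusted edgeR p under 0.05. In WT it was -0.318, with 0 of 7, whereas the mitochondrial share had the larger of its 2 differences in WT. Sertoli cell markers summed to 13.9 to 221 CPM at 11 months and 41.4 to 487 CPM at 3 months, with 11 of 11 tested lower and 1 at an unadjusted p under 0.05. Their median log2 fold change was -0.59 in Tet1KO and -1.04 in WT. The part of these markers in the result was not tested.

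Gene by gene, edgeR's quasi-likelihood test of 19815 genes called 0 of the 33 mitochondrial genes that passed the filter on low counts in any of the 7 comparisons, at a Benjamini-Hochberg adjusted p under 0.05. These 33 are the 13 protein genes, the 2 rRNA genes and 18 of the 22 tRNA genes. The background was equally empty, with 0 percent of all genes called in each comparison, so the absence of calls is not particular to mitochondrial genes. For 11 against 3 months averaged over genotypes, 4 of the 33 members had an unadjusted edgeR p under 0.05, all lower, beside 5.63 percent of all tested genes lower and 7.82 percent in either direction. DESeq2 called 17 genes in this comparison and 0 mitochondrial genes. At an unadjusted DESeq2 p under 0.05 there were 6 of the 33 members and 1853 of the 19815 genes that passed the filter. The edgeR count of 4 members ran from 1 to 9 with 1 library left out, while that of all genes ran from 627 to 2188.

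Of the 33 members, 28 had a negative log2 fold change for 11 against 3 months averaged over genotypes, beside 53.6 percent of all tested genes. All 15 protein and rRNA genes were among them, with a median of -0.27, against -0.02 over all tested genes. These 15 signs are not independent observations, because the genes come from the same libraries and precursors. mt-Nd4, a subunit of the proton-pumping arm of complex I, had 4391, 4087 and 4891 CPM in Tet1KO and 4910, 3659 and 4274 CPM in WT libraries of 11 months. At 3 months it had 5815, 4921 and 5026 CPM in Tet1KO and 6192, 5844 and 5520 CPM in WT libraries. The 2 ages did not overlap for this gene, although the highest library of 11 months and the lowest of 3 months were close, and 0.136 percent of all tested genes were lower in every library in the same way. It was the only member of the 33 without overlap. Its log2 fold change was -0.34 ± 0.13 (SE), with an edgeR adjusted p of 0.636 (unadjusted 0.0221). About 62.2 percent of its windows are shared with the chromosome 1 copy.

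Of the genes without a close nuclear copy, mt-Nd1, a complex I subunit at the junction of its arms, had 10640, 7999 and 12260 CPM in Tet1KO and 11620, 7912 and 11470 CPM in WT libraries of 11 months. At 3 months mt-Nd1 had 12990, 11780 and 10250 CPM in Tet1KO and 15010, 12310 and 14220 CPM in WT libraries. The 3 WT libraries of 3 months included the highest values and replicate 2 of each genotype at 11 months the lowest, with overlap elsewhere. Its log2 fold change of 11 against 3 months was -0.30 ± 0.17 (SE; edgeR adjusted p = 0.661). mt-Cytb had 17990, 13330 and 24230 CPM in Tet1KO and 22390, 14780 and 22490 CPM in WT libraries of 11 months, and 21720, 19170 and 21300 CPM in Tet1KO and 24380, 20330 and 25950 CPM in WT libraries of 3 months. Replicate 2 of each genotype at 11 months was again lowest, and the other 11-month libraries lay within the range of 3 months or just under it. The mt-Cytb log2 fold change was -0.20 ± 0.19 (SE; edgeR adjusted p = 0.808).

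The remaining genes had log2 fold changes of 11 against 3 months between -0.45 ± 0.20 (SE) for mt-Nd4l and -0.04 ± 0.20 for mt-Nd3. Of the ATP synthase genes, mt-Atp8 stood at -0.35 ± 0.22 and mt-Atp6 at -0.31 ± 0.21, and of complex IV, mt-Co2 at -0.28 ± 0.15, mt-Co1 at -0.27 ± 0.16 and mt-Co3 at -0.23 ± 0.16. The complex I genes mt-Nd2, mt-Nd6 and mt-Nd5 stood at -0.18 ± 0.18, -0.17 ± 0.14 and -0.14 ± 0.14. The rRNA genes mt-Rnr1 and mt-Rnr2 were at -0.27 ± 0.22 each. None passed the edgeR threshold, and of these only mt-Nd4l had an unadjusted p under 0.05 (0.0490). In WT libraries alone, 33 of 33 members had a negative value, beside 56.4 percent of all tested genes. For 5 of the 33 the edgeR unadjusted p was under 0.05, all lower at 11 months, beside 3.30 percent of all tested genes lower and 5.67 percent in either direction, and the median of the 15 genes was -0.45 against -0.06 over all genes. These 5 were mt-Nd4, mt-Co2, mt-Co3, mt-Te and mt-Tl1, the last named after its values were seen. The count of 5 fell to 1 without Tet1KO replicate 2 and WT replicate 1 of 3 months (451 genes in all). With 1 library left out it ran from 1 to 6, while that of all genes ran from 446 to 1607. In Tet1KO libraries alone, 0 members reached an unadjusted edgeR p under 0.05, beside 2.33 percent of all genes, and 18 of 33 were negative, beside 52.0 percent. The median of the 15 genes was -0.04 in Tet1KO, and turned to 0.14 without replicate 2 of 11 months and to -0.27 without replicate 3 of 11 months. Whether the age difference depends on genotype is the interaction given further on.

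**Figure D3:**
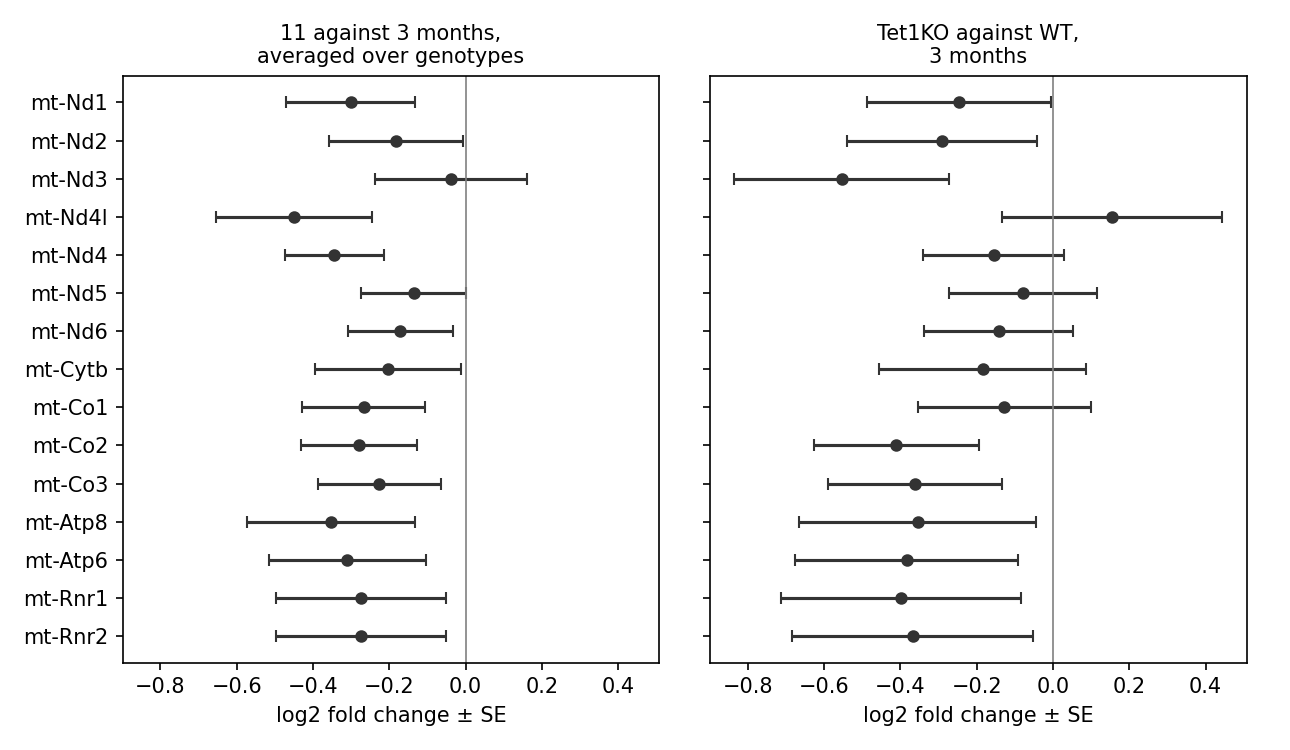
Log2 fold change (x axis) with its SE from the edgeR fit for each mitochondrial protein and rRNA gene (y axis), for 11 against 3 months averaged over genotypes on the left and Tet1KO against WT at 3 months on the right. All 15 points on the left and 14 of the 15 on the right are below 0, the exception being mt-Nd4l at 0.16, and none passed the threshold.

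A chosen list of nuclear subunit genes of the respiratory complexes was counted beside these, 47 tested genes of complexes I to V and not all such genes. Of these, 10 belong to complex I and 4 to complex II, which has no mitochondrially encoded subunit. For 11 against 3 months averaged over genotypes, 39 of the 47 had a positive log2 fold change, beside 46.4 percent of all tested genes, with a median of 0.08, 1 at an unadjusted edgeR p under 0.05 and 0 called. By genotype, 33 of 47 were positive in Tet1KO (median 0.13), beside 48.0 percent of all tested genes. In WT 21 of 47 were positive (median -0.04), close to the 43.6 percent of all tested genes. There 7 of the 47 were higher at an unadjusted edgeR p under 0.05 and 0 lower, beside 2.37 percent of all tested genes higher. Of the 10 nuclear complex IV genes, 10 were positive in Tet1KO (median 0.29) and 1 was positive in WT (median -0.14). The 10 nuclear complex I genes went the other way, with 4 positive in Tet1KO (median -0.03) and 7 in WT (median 0.13). These differences were not tested for the lists. Of the nuclear genes that transcribe, copy, process or regulate mitochondrial RNA, 45 of 47 in the table were tested and 0 were called in any comparison. Their median was 0.03 for 11 against 3 months, with 1 higher and 0 lower at an unadjusted edgeR p under 0.05. Polrmt, the mitochondrial RNA polymerase gene, stood at 21.6 ± 2.41 CPM in Tet1KO and 21.6 ± 1.92 CPM in WT at 11 months, and at 19.1 ± 3.20 CPM in Tet1KO and 18.4 ± 3.40 CPM in WT at 3 months (SD, n = 3 each). Tfam, which packages mitochondrial DNA and starts its transcription, stood at 96.4 ± 18.7 CPM in Tet1KO and 95.8 ± 14.7 CPM in WT at 11 months, and at 83.9 ± 2.91 CPM in Tet1KO and 92.2 ± 13.1 CPM in WT at 3 months. Neither gene differed past the threshold, with log2 fold changes of 11 against 3 months of 0.21 ± 0.14 (SE) for Polrmt and 0.13 ± 0.12 for Tfam.

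The WT libraries of 3 months enter the age comparisons and also the genotype comparison at 3 months, so their values are not independent. For Tet1KO against WT at 3 months, 0 of 33 members had an unadjusted edgeR p under 0.05, beside 1.14 percent of all genes, and 30 of 33 had a negative log2 fold change, beside 53.2 percent. The 0 became 5 with only these 2 groups in the fit (266 genes in all), for which the filter on low counts was run anew. It became 6 of 33 with the replicate number as a block (367 of 19815 genes, beside 225 without the block). The mitochondrial share differed by -0.138 on the log2 scale, with means of 7.86 ± 0.618 percent in Tet1KO and 8.65 ± 0.483 percent in WT (SD, n = 3 each; exact permutation p = 0.3, adjusted p = 0.525). It was -0.0642 without the 2 libraries that stood apart and -0.228 without the 2 of code prefix DY, Tet1KO replicate 1 and WT replicate 2. Of the 15 protein and rRNA genes, 14 had a negative log2 fold change, with a median of -0.29, against -0.02 over all tested genes. For 9 of the 33 members every Tet1KO library was below every WT library, beside 3.62 percent of all tested genes. These were mt-Nd3, mt-Co2 and mt-Co3, which share nearly all windows with the chromosome 1 copy, and the tRNA genes mt-Ti, mt-Te, mt-Ta, mt-Tn, mt-Tc and mt-Tr, of which the last 4 are named after their values were seen. For mt-Tr this rested on 10, 16 and 12 counts in Tet1KO and 16, 16 and 9 in WT libraries. For mt-Ti the highest Tet1KO library was at 64.49 CPM and the lowest WT library at 67.41 CPM. The CPM carry TMM factors, and the lowest factor, 0.8967, raised the values of WT replicate 3. By library totals without these factors, mt-Ti and mt-Tr overlapped between the genotypes, and the rest of the 9 did not. For mt-Ti, Tet1KO replicate 1 had 624 of 9623251 counts and WT replicate 3 had 530 of 8325159. For mt-Tr, Tet1KO replicate 3 had 12 of 10340312 counts, a higher share than the 9 counts of WT replicate 3. The share of all genes was not recounted without the factors.

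Among these 9, mt-Nd3 had the lowest log2 fold change of the protein genes, with 16.85, 16.17 and 15 CPM in the Tet1KO libraries, against 22.15, 23.39 and 24.95 CPM in WT libraries of 3 months. The groups did not overlap, and the log2 fold change was -0.55 ± 0.28 (SE; edgeR adjusted p = 1, unadjusted 0.0741). For mt-Co3, a core subunit of complex IV, the values were 1088, 932.8 and 822.2 CPM in the Tet1KO libraries, against 1309, 1099 and 1243 CPM in WT libraries. Its highest Tet1KO library was just under its lowest WT library, and its log2 fold change was -0.36 ± 0.23. For mt-Co2, a copper-binding subunit of complex IV, Tet1KO libraries held 681.1, 621.5 and 559.1 CPM, against 911.1, 742.5 and 820.5 CPM in the WT ones. These too did not overlap, and the log2 fold change was -0.41 ± 0.22. Of the genes with no window shared with an annotated nuclear transcript, mt-Nd1 stood at -0.25 ± 0.24, mt-Cytb at -0.18 ± 0.27, mt-Nd6 at -0.14 ± 0.20 and mt-Rnr1 at -0.40 ± 0.31. Also without such a window, but between genes copied on chromosome 1, mt-Atp8 stood at -0.35 ± 0.31. The other members were mt-Atp6 at -0.38 ± 0.29, mt-Rnr2 at -0.37 ± 0.32, mt-Nd2 at -0.29 ± 0.25, mt-Nd4 at -0.16 ± 0.18, mt-Co1 at -0.13 ± 0.23, mt-Nd5 at -0.08 ± 0.19 and mt-Nd4l at 0.16 ± 0.29.

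Markers of Sertoli cells, the somatic nurse cells of the tubule, did not overlap between the genotypes at 3 months. The summed level of 12 such markers, of which 9 had a count in all 12 libraries, was 41.4 to 106 CPM in Tet1KO and 113 to 487 CPM in WT libraries, and their part in the mitochondrial values was not tested. Of the nuclear factors, the smallest unadjusted edgeR p at 3 months was that of Slirp, an RNA stabiliser that works with Lrpprc, with 134 ± 12.1 CPM in Tet1KO and 178 ± 47.2 CPM in WT (SD, n = 3 each) and an unadjusted p of 0.195. Lrpprc stood at 105 ± 5.19 CPM in Tet1KO and 106 ± 17.7 CPM in WT. Nuclear subunit genes had a median log2 fold change of -0.11, with 33 of 47 negative, beside 53.2 percent of all tested genes, and 0 called.

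At 11 months the genotype difference had the other sign for most members. The mitochondrial share was 7.03 ± 0.830 percent in Tet1KO and 6.95 ± 0.937 percent in WT (SD, n = 3 each), a log2 difference of 0.0195 with an exact permutation p of 0.9, and its sign turned in the protein genes alone (-0.0128). Of the 15 protein and rRNA genes 10 had a positive log2 fold change, with a median of 0.12, and 23 of the 33 members did so, beside 53.8 percent of all genes. At an unadjusted edgeR p under 0.05 there were 0 of 33, beside 1.65 percent of all genes. For 0 of 33 members the genotypes did not overlap, beside 2.82 percent of all genes higher and 2.54 percent lower without overlap. The median of the 15 genes was -0.13 without Tet1KO replicate 3. Peritubular myoid markers, of which 6 of 7 had a count in every library, summed to 23.2 to 55.4 CPM in Tet1KO and 72.2 to 244 CPM in WT libraries of 11 months, and their part was not tested. Mgme1, a mitochondrial exonuclease gene, had the smallest unadjusted edgeR p of the nuclear factors at 11 months (0.0631) and averaged over ages (0.0392), with a log2 fold change averaged over ages of -0.27 ± 0.11 (SE) that did not pass the adjusted threshold.

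Averaged over ages, the genotypes differed in mitochondrial share by -0.0593 on the log2 scale (exact permutation p = 0.475), from -0.113 without WT replicate 2 of 11 months to -0.0152 without Tet1KO replicate 2 of 11 months, and 0 of 33 members had an unadjusted edgeR p under 0.05, beside 1.43 percent of all genes, with 25 of 33 negative, beside 48.8 percent. The change of the genotype difference with age was tested as an interaction, Tet1KO minus WT at 11 months less the same at 3 months. It was 0.157 for the share (exact permutation p = 0.375), and ran from 0.0493 without WT replicate 2 of 11 months to 0.246 without Tet1KO replicate 2 of 11 months. It was positive for 32 of 33 members, beside 55.6 percent of all genes, and for all 15 protein and rRNA genes, with a median of 0.29 against 0.06 over all genes, and 0 were called by edgeR. The median ran from 0.11 without Tet1KO replicate 3 of 11 months to 0.47 without Tet1KO replicate 2 of 11 months. At an unadjusted edgeR p under 0.05 there were 3 of 33 members, mt-Te, mt-Tn and mt-Tc, the last 2 named after their values were seen, all positive, beside 0.828 percent of all genes positive and 1.57 percent in either direction. That count of members ran from 0 to 9 with 1 library left out, while that of all genes ran from 233 to 645.

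**Figure D4:**
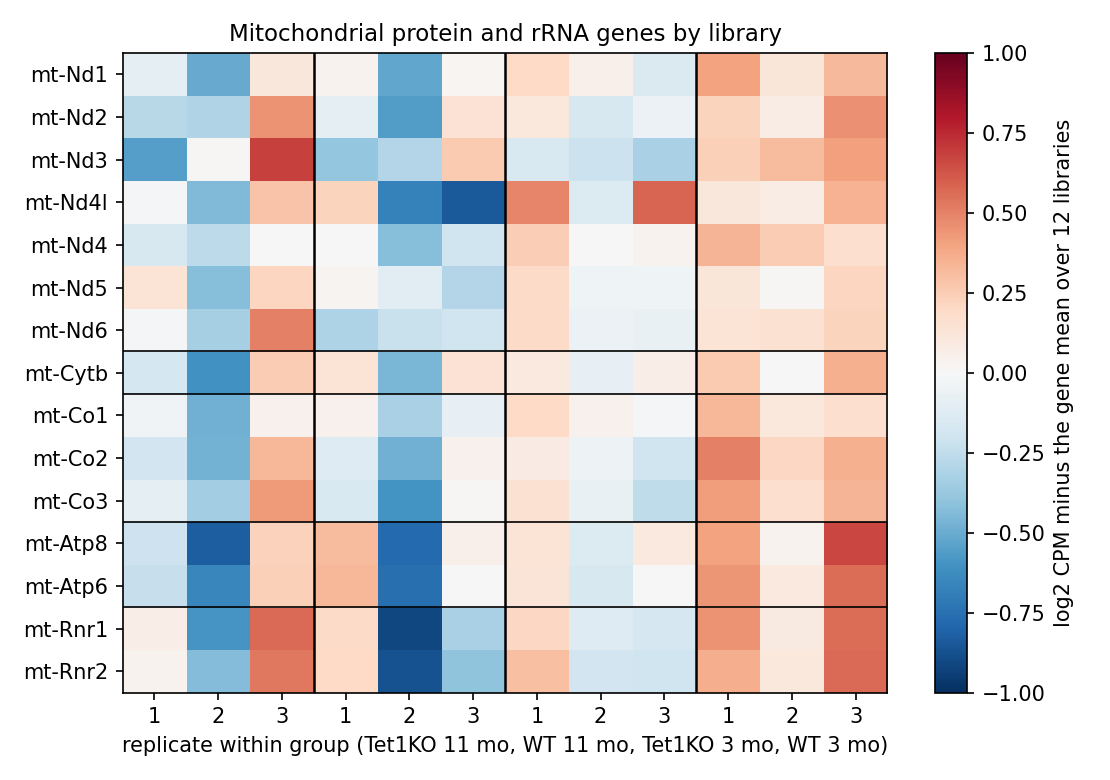
Log2 CPM of each mitochondrial protein and rRNA gene (rows, grouped as complex I, complex III, complex IV, complex V and rRNA) minus the mean of that gene over 12 libraries, for the libraries of each group (columns). Replicate 2 of Tet1KO and of WT at 11 months are low for most genes, and replicate 3 of Tet1KO at 11 months and the WT libraries of 3 months are high for most.

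The spread between libraries was wide for several genes. Over 12 libraries and among the 15 protein and rRNA genes, the coefficient of variation of CPM was lowest for mt-Nd5 at 13.2 percent and mt-Co1 at 14.5 percent, and highest for mt-Rnr1 at 29, mt-Nd4l at 28.2 and mt-Rnr2 at 28 percent. mt-Nd6, the only protein gene on the other strand, had a coefficient of 17.8 percent. The pooled SD between libraries of a group was 0.261 on the log2 scale for the mean of the 15 genes. CPM values also carry the TMM scaling factors, which ran from 0.8967 in WT replicate 3 of 3 months to 1.161 in Tet1KO replicate 2 of 11 months.

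The 2 rRNA genes, which give the RNA cores of the large and small mitochondrial ribosomal subunits, were low and high in the same libraries as each other. mt-Rnr2 had 5057, 3661 and 7113 CPM in Tet1KO and 5661, 2696 and 3748 CPM in WT libraries of 11 months, and 6093, 4330 and 4305 CPM in Tet1KO and 6353, 5327 and 7329 CPM in WT libraries of 3 months. The highest was WT replicate 3 of 3 months and the lowest WT replicate 2 of 11 months. The groups overlapped, although every library of 3 months, Tet1KO and WT, lay above WT replicates 2 and 3 of 11 months. mt-Rnr1 had 848.4, 540.5 and 1200 CPM in Tet1KO and 928.4, 431.0 and 646.7 CPM in WT libraries of 11 months, with 935.7, 742.8 and 723.1 CPM in Tet1KO and 1106, 862.4 and 1197 CPM in WT libraries of 3 months, again lowest in WT replicate 2 of 11 months. The ratio of mt-Rnr2 to mt-Rnr1 counts stayed between 5.74 and 6.77 in all 12 libraries. In WT libraries the log2 fold change of 11 against 3 months was -0.65 ± 0.32 (SE) for mt-Rnr2 and -0.66 ± 0.32 for mt-Rnr1 (edgeR adjusted p = 0.774 each).

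Summed rRNA counts per protein-gene count were 0.0918, 0.0861 and 0.108 in Tet1KO and 0.0905, 0.0607 and 0.0632 in WT libraries of 11 months. At 3 months the ratios were 0.0905, 0.0740 and 0.0732 in Tet1KO and 0.0861, 0.0842 and 0.101 in WT libraries. At 11 months Tet1KO libraries were higher in 2 of 3 replicates beyond the WT range, with overlap through WT replicate 1. The Tet1KO minus WT log2 difference was 0.431 at 11 months (exact permutation p = 0.2) and -0.192 at 3 months (exact permutation p = 0.3). Their difference was 0.622, with an exact permutation p of 0.04 that became 0.588 after adjustment over the 20 tests of ratios and complex shares. Averaged over genotypes, the ratio differed by -0.0465 between 11 and 3 months (exact permutation p = 0.755). For the interaction, edgeR gave log2 values of 0.77 ± 0.44 (SE) for mt-Rnr1 and 0.76 ± 0.45 for mt-Rnr2, with adjusted p of 1.

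**Figure D5:**
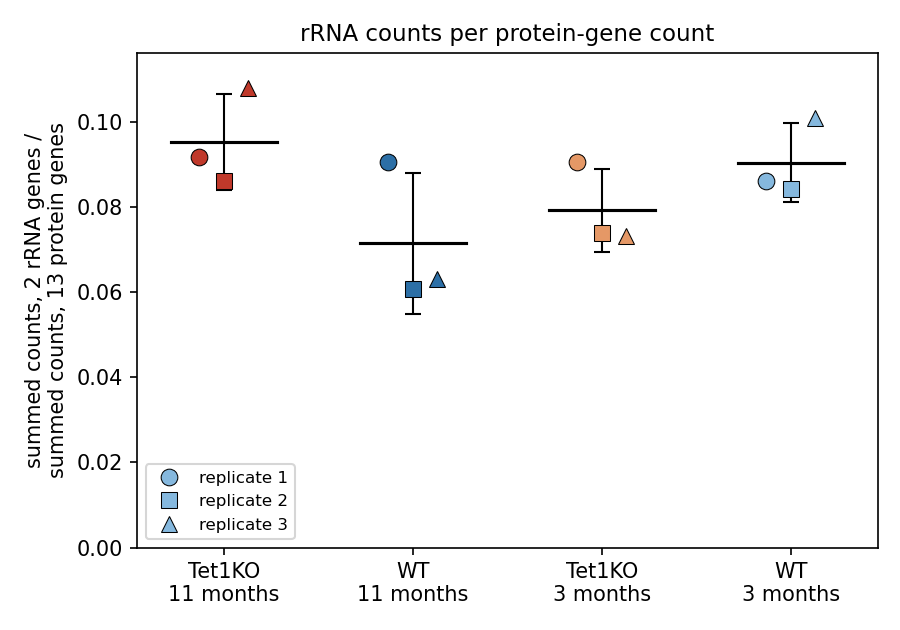
Summed counts of the 2 rRNA genes divided by summed counts of the 13 protein genes in each library, by group. Points are libraries with a symbol for each replicate number, lines are group means and bars are SD (n = 3). WT replicates 2 and 3 of 11 months, at 0.0607 and 0.0632, are the lowest, and Tet1KO replicate 3 of 11 months is the highest at 0.108.

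Among protein genes, the shares of the complexes were compared next. Complex I genes held 28.5 to 31.9 percent of protein-gene counts, complex III (mt-Cytb) 27.3 to 32.4 percent, complex IV 33.3 to 38.2 percent and complex V 3.87 to 6.06 percent over the 12 libraries. Averaged over genotypes, log2 differences of 11 against 3 months were between -0.101 for complex V and 0.0399 for complex III, with exact permutation p from 0.39 to 0.935. Averaged over ages, log2 differences of Tet1KO against WT were between -0.117 for complex V and 0.0276 for complex IV, with exact permutation p from 0.3 to 0.5. The sign of the complex IV value for age, -0.0035, depended on which libraries were used. The counts of mt-Nd6 per count of the other 12 protein genes were 0.0106, 0.0112 and 0.0127 in Tet1KO and 0.00765, 0.0115 and 0.00865 in WT libraries of 11 months, and 0.00955 to 0.0102 in Tet1KO and 0.00873 to 0.0104 in WT libraries of 3 months. Tet1KO and WT overlapped, and the log2 difference averaged over ages was 0.186 (exact permutation p = 0.15, adjusted p = 0.588). Counting without strand, reads of mt-Nd6 and of RNA from the opposite strand cannot be told apart.

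The tRNA genes need care, because a fragment that overlaps several genes was counted for each of them and the tRNA genes abut longer genes. Of the 22, 16 lie within 3 bases of a protein or rRNA gene. The 5 with the highest mean CPM are shown as the transcripts that took most tRNA counts, with capitals marking bases inside an annotated protein gene.
mt-Ts1, chrM:6870-6938, minus strand: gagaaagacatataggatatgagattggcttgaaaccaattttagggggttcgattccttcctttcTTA
mt-Ty, chrM:5260-5326, minus strand: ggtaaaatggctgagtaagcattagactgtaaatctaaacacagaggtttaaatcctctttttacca
mt-Ti, chrM:3706-3774, plus strand: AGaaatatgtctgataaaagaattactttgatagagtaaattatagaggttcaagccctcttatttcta
mt-Te, chrM:14071-14139, minus strand: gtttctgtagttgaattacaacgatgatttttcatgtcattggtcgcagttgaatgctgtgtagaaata
mt-Tg, chrM:9391-9458, plus strand: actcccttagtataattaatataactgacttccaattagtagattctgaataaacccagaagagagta
These 5 tRNA genes, for a serine, tyrosine, isoleucine, glutamate and glycine tRNA, took 79.3 percent of all tRNA-gene counts, and mt-Ts1 alone took 38.4 percent.

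mt-Ts1 lies at the end of mt-Co1 on the opposite strand and shares 3 bases with it, and mt-Ty lies 1 base before the start of mt-Co1, also on the opposite strand. mt-Ti shares 2 bases with the end of mt-Nd1, and mt-Te and mt-Tg directly adjoin mt-Nd6 and mt-Co3. Mean levels over 12 libraries were 230.0 CPM for mt-Ts1, 92.6 for mt-Ty, 61.1 for mt-Ti, 48.7 for mt-Te and 43.8 for mt-Tg. These neighbours are protein genes of 1000 to 23500 CPM in 3 cases, mt-Co1, mt-Nd1 and mt-Co3, and 692 CPM for mt-Nd6. Counts on tRNA genes can thus come from fragments of their neighbours or of unprocessed precursors, and the table cannot tell these from mature tRNA. By contrast mt-Tv, which lies between the 2 rRNA genes, averaged 0.396 CPM. Of the 22, 7 tRNA genes averaged at least 20 CPM, 10 averaged 1 to 20 CPM and 5 averaged under 1 CPM. The 4 that did not pass the filter on low counts were mt-Tv, mt-Th, mt-Tl2 and mt-Ts2, with 17 to 99 counts summed over 12 libraries.

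Most tRNA genes had the same sign as the protein genes. Of 18 tested, 13 had a negative log2 fold change for 11 against 3 months averaged over genotypes, with a median of -0.14, and all 18 did so in WT libraries alone, with a median of -0.43. The lowest unadjusted edgeR p was that of mt-Tl1, a leucine tRNA gene between mt-Rnr2 and mt-Nd1, named after its values were seen. It had 27.6, 20.8 and 26.5 CPM in Tet1KO and 30.34, 12.95 and 22.47 CPM in WT libraries of 11 months, and 36.9, 28.1 and 24.0 CPM in Tet1KO and 46.0, 39.7 and 36.5 CPM in WT libraries of 3 months. The WT libraries of 3 months were among the highest, and the ages overlapped through the Tet1KO libraries. The log2 fold change of mt-Tl1 was -0.57 ± 0.20 (SE; edgeR adjusted p = 0.636, unadjusted 0.0134) averaged over genotypes and -0.90 ± 0.28 (edgeR adjusted p = 0.774) in WT. mt-Td, also named after its values were seen, was the other tRNA gene with an unadjusted p under 0.05 averaged over genotypes, at 1.77 to 5.27 CPM.

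mt-Te had 39.47, 36.96 and 82.54 CPM in Tet1KO and 30.5, 34.5 and 46.8 CPM in WT libraries of 11 months, and 46.9, 43.9 and 42.6 CPM in Tet1KO and 60.6, 58.3 and 61.2 CPM in WT libraries of 3 months. Every Tet1KO library of 3 months was below every WT library of that age, and at 11 months the genotypes overlapped. mt-Ts1 varied least of the 5 highest, at 168 to 278 CPM, and mt-Tg most, at 16.7 to 96.0 CPM. Summed tRNA counts per protein-gene count were 0.00844, 0.00958 and 0.0101 in Tet1KO and 0.00771, 0.00968 and 0.00864 in WT libraries of 11 months, and 0.0081, 0.00811 and 0.00787 in Tet1KO and 0.00845, 0.00828 and 0.00836 in WT libraries of 3 months. At 3 months the 2 genotypes did not overlap, with a log2 difference of -0.0595 and an exact permutation p of 0.1, the smallest possible for 3 against 3 libraries (adjusted p = 0.588). The log2 difference of 11 against 3 months averaged over genotypes was 0.134 (exact permutation p = 0.1, adjusted p = 0.588).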

How the data were processed

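The values used are the authors' deposited raw counts per gene in 12 libraries. Per the file headers, featureCounts 1.6.2 assigned fragments to GENCODE vM17 genes without strand, at a mapping quality of at least 30, and a fragment over several genes added to every one of them. The mm10 build, HISAT2 and SAMtools were used, per the submitters' processing notes, with versions not given in the sources used here. From these counts, genes were filtered with filterByExpr (19815 of 53715 left), scaled with TMM and tested with edgeR 4.0.16 in R 4.3.3, by the robust quasi-likelihood F test on all 12 libraries with 1 mean per group and 7 contrasts, two-sided, with Benjamini-Hochberg adjustment over all tested genes at 0.05. SEs were derived from the F statistic. Shares and ratios were taken from counts, compared on the log2 scale and tested with exact two-sided permutation tests that exchanged genotype labels within ages or age labels within genotypes. The 7 tests of the share were adjusted together, and the 20 tests of ratios and complex shares together. Both procedures were tested on simulated data.

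Copies were found with blastn among the GENCODE vM21 transcripts, and gene symbols came from a reference table of gene identifiers (53620 of 53715 matched). A count of 0 allows up to 3 counts, 0.165 to 0.360 CPM of library totals at these depths, for counting error only, since reads carry no molecular identifiers. Libraries of a group differed by more than counting noise, (chi-square over degrees of freedom 9.85 or more), and each was counted once. Named genes were all protein and rRNA genes, the 5 highest tRNA genes, the chromosome 1 copies, Polrmt, Tfam, Lrpprc, Slirp, the nuclear factor with the smallest p in each of the first 3 comparisons, and Ddx4, Dazl and Kit. The members, lists and rules were chosen with earlier results of these data known. Replicate numbers come from the labels, and at 11 months same-numbered libraries deviated together (correlations of 0.371, 0.167 and 0.332), so a block by number was tried. Alternatives were DESeq2 1.42.0, other scalings and filters, the compared groups alone, a threshold of 0.01, libraries left out, and genes with copies left out or added.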

Additional observations from a re-analysis of the deposited data

Results flagged for a closer look

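The rRNA to protein-gene ratio differed between Tet1KO and WT in opposite directions at the 2 ages, by 0.431 on the log2 scale at 11 months and -0.192 at 3 months, a difference of 0.622. The exact permutation test of that difference gave p = 0.04, and 0.588 after adjustment over 20 tests, so it did not pass the threshold, and it was pointed out because its unadjusted p was under 0.05. With the replicate number as a block p was 0.0938 by the same test. At 11 months Tet1KO was higher than WT in 3 of 3 same-numbered pairs, by little in replicate 1 (0.0918 against 0.0905). The blocked exact permutation p at that age was 0.25. At 3 months Tet1KO was higher in replicate 1 (0.0905 against 0.0861). It was lower in replicates 2 (0.0740 against 0.0842) and 3 (0.0732 against 0.101). The difference between the ages was 0.623 when protein genes with many windows shared with nuclear copies were left out. It was 0.441 (exact permutation p = 0.08) when the mean of log2 CPM over the genes of each class was used. With a library left out it ran from 0.516 to 0.805. Leukocyte markers, all 11 with a count in every library, summed to 477 to 984 CPM in Tet1KO and 83.8 to 1050 CPM in WT libraries of 11 months, with WT replicate 2 lowest, at a ratio of 0.0607, and WT replicate 3 at 858 CPM with a ratio of 0.0632. Peritubular myoid markers were negative in the interaction for 7 of 7 genes, 4 at an unadjusted edgeR p under 0.05, and leukocyte markers positive for 11 of 11, 1 at an unadjusted p under 0.05. The part of these markers in the ratio was not tested.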

How the results depend on the processing

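edgeR called 0 genes, mitochondrial or other, in each comparison and alternative reported here. The fit of only the compared groups covers the 4 comparisons of 2 groups. Results with libraries left out are given only for comparisons that use their groups, although all groups share the estimate of the spread. DESeq2 called 2 genes for Tet1KO against WT at 3 months, 3 at 11 months and 2 averaged over ages, 7 for 11 against 3 months in Tet1KO and 17 averaged over genotypes, with 0 mitochondrial genes among them, and 0 in the other comparisons. Single-gene alternatives for Tet1KO against WT at 11 months and averaged over ages were computed only for the median of the 15 protein and rRNA genes.

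The share at 11 months, 0.0195, turned to -0.0128 in the 13 protein genes alone, to -0.0184 per count of genes outside chrM, and ran from -0.0886 to 0.108 with a library left out. The tRNA ratio averaged over ages, 0.0277, turned to -0.0542 by mean log2 CPM and ran from -0.0134 to 0.0688. The rRNA ratio for age, -0.0465, ran from -0.138 to 0.00666. The complex IV share for age, -0.0035, ran from -0.0283 to 0.0188, and was 0.0108 without the 2 libraries of code prefix DY (Tet1KO replicate 1 and WT replicate 2 of 3 months) and 0.0138 without the 2 libraries that stood apart. With a library left out, mt-Nd5 at 3 months ran from -0.155 to 0.00332 and mt-Nd3 for age from -0.217 to 0.0886. The share for age averaged over genotypes ran from -0.289 to -0.191, with adjusted p from 0.035 to 0.28, and passed the threshold only without Tet1KO replicate 3 of 11 months (-0.286). The medians of the 15 genes ran from -0.358 to -0.167 for age, from -0.371 to -0.167 for genotype at 3 months and from -0.13 to 0.27 at 11 months. In WT they ran from -0.544 to -0.347 and in Tet1KO from -0.274 to 0.138, and for the interaction from 0.113 to 0.474. The causes were not tested.

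With the replicate number as a block, values of the shares and ratios are the same by construction, and the permutation p of the share for age averaged over genotypes was 0.0625. The block changed no call, and left 0 genes called. The block did move the numbers at an unadjusted edgeR p under 0.05, out of 33 mitochondrial genes and 19815 genes in all. For Tet1KO against WT, mitochondrial genes numbered 6 in place of 0 at 3 months and 2 in place of 0 at 11 months. All genes there numbered 367 in place of 225 and 415 in place of 326. For age in WT, mitochondrial genes numbered 13 in place of 5 and all genes 1354 in place of 1124. For age averaged over genotypes, mitochondrial genes numbered 8 in place of 4 and all genes 1605 in place of 1550. For the interaction, mitochondrial genes numbered 8 in place of 3 and all genes 457 in place of 311. Same-numbered libraries of 3 months did not all deviate together (correlations of -0.589, -0.182 and 0.296). Whether the numbers mark pairs at that age cannot be told from these 3 values. Depth limits only the lowest tRNA genes, and a test of 3 against 3 libraries cannot give an exact permutation p under 0.1.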
